A study of Mus musculus with 8 samples.

Results

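The genes described here are 40 genes of the lysosome: the cathepsins and legumain, other acid hydrolases, the lipid carriers and cofactors that work with them, the major membrane proteins, 4 genes of the proton pump and the transcription factor gene Tfeb. They were chosen by name, and all 40 had an entry in the deposited table of 13681 gene symbols. Where a symbol had several transcript entries, the one with the highest mean was used (5 of the 40 genes had more than 1). All 40 passed the filter on low values (1 FPKM or more in 2 or more of the libraries), which 12921 genes passed in all.

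The 8 RNA libraries came from lymphomas of the thymus in p53-null mice (p53-/-) of the C57BL/6 strain, and a virus had been injected into each tumour at 10 weeks of age, with the tissue taken after 48 hours. The 2 control libraries carry the label ΔNfl/fl;p53-/- and received Ad-mCherry, an adenovirus that makes a red fluorescent protein. The 3 libraries labelled ΔNp63Δ/Δ;p53-/- and the 3 labelled ΔNp73Δ/Δ;p53-/- received Ad-CRE-mCherry, which also makes Cre recombinase, the enzyme that cuts out floxed DNA. In both comparisons with control the virus therefore differs together with the genotype, so a response to Cre and a response to a deletion cannot be told apart. The label of the controls does not say which gene is floxed. The study compares p53-null tumours with and without ΔNp63 or ΔNp73, the N-terminally shortened forms of the p53 relatives p63 and p73. The labels do not say that the libraries of a group came from separate animals, so p-values measure the spread between these libraries, which may be technical.

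Lysosomes are acidic compartments in which proteins, sugars and lipids are broken down. A proton pump, the V-ATPase, keeps the lumen acidic, heavily glycosylated membrane proteins line it, and soluble hydrolases are delivered to it, most of them on mannose 6-phosphate receptors. TFEB and its relatives switch on many lysosomal genes through promoter elements built around the letters CACGTG. All cells have lysosomes, but macrophages and other phagocytes are rich in them, and thymic epithelial and dendritic cells use cathepsins to prepare peptides for MHC class II.

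A single library stood apart, replicate 2 of the ΔNp63-labelled group. Its median correlation with the other libraries across genes was 0.848, against 0.915 to 0.957 for the rest. The highest entry of Trp63, the targeted gene, had 5.21 and 3.38 FPKM in control tumours and 6.57, 1.05 and 9.91 under the ΔNp63 label. Its log2FC under that label was 0.09 (SE 0.67, limma adjusted p = 0.973). In this entry ΔNp63-labelled replicate 2 was the lowest of all 8 libraries, and replicates 1 and 3 were above both controls. Replicate 2 was also lowest in the next entries, at 0.777 FPKM (controls 3.44 and 7.37) and 0.0394 FPKM (controls 4.53 and 3.71). In the lowest entry it lay between the controls, at 0.549 FPKM. Results without replicate 2 thus leave out the ΔNp63-labelled library with the lowest values in the upper entries of Trp63. The files do not say which Trp63 entries hold the ΔN start, so the deletion could not be checked, Trp73 was not analysed here, and every direction below rests on the labels. The highest entry of Trp53, p53-/- in all groups per the labels, was at 11.0 to 81.0 FPKM. Sequencing depth is unknown here because FPKM, a read density corrected for transcript length and library size, holds no counts, and quantile normalisation had given the 8 libraries nearly the same distribution of values. Log2 fold changes (log2FC) are on the log2(FPKM + 1) scale and understate the change of genes at a few FPKM. Results are given with all libraries and, where it matters, without ΔNp63-labelled replicate 2, which was singled out after its values were seen.

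In the controls the 40 genes spanned levels from 1.27 ± 0.018 FPKM (SD, n = 2) for Ctsk, a collagen-degrading cathepsin best known from osteoclasts, to 587 ± 6.81 for Ctsl, the cathepsin L gene, whose product trims the invariant chain of MHC class II in mouse cortical thymic epithelium. Psap, which encodes the precursor of the saposins that present lipids to hydrolases, followed at 341 ± 39.4 FPKM, and Ctsd, the main aspartic protease of lysosomes, at 207 ± 44.5. These 3 genes made up 52.7% and 54.1% of the summed level of all 40 in the controls. FPKM is scaled by transcript length, so levels can be set side by side between entries. The order, places and sums given here count only the highest entry of a gene and understate genes with several. For Lamp2 the entry left out had 49.5 and 51.9 FPKM in the controls. Npc2 was at 77.7 ± 4.68 FPKM, Ctsb at 75.4 ± 6.89, Lipa at 65.9 ± 1.95, Lamp2 at 65.02 ± 0.770 and Ctse at 63.6 ± 1.27, all as mean ± SD. The control values of Npc2 and Ctsb overlapped, as did those of Lipa, Lamp2 and Ctse. Near the low end stood Gla at 2.53 ± 0.150, Sgsh at 2.49 ± 0.290 and Tfeb at 2.43 ± 0.0634 FPKM.

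That order was different in the ΔNp73-labelled tumours. Psap was there the highest, at 587 ± 20.7 FPKM (SD, n = 3), ahead of Ctsl at 525 ± 53.2, and it was above Ctsl in each of the 3 libraries, though the SDs of the pair overlapped. Ctss moved from place 14 among the 40 in the controls to place 5 in the ΔNp73-labelled group, Lgmn from place 24 to place 12, and Lipa from place 6 to place 17. The ΔNp63-labelled means shifted likewise, with Ctss at place 10, Lgmn at 14 and Lipa at 15. Psap was at place 1 there as well, though below Ctsl in replicates 1 and 3. Without Ctsl the summed level of the other members was 1448 and 1624 FPKM in control tumours, 2906, 1324 and 3131 FPKM under the ΔNp63 label and 3589, 3515 and 2968 FPKM under the ΔNp73 label. ΔNp63-labelled replicate 2 was thus lower than both controls in this sum, while the other 5 libraries given Cre were above them.

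**Figure D1:**
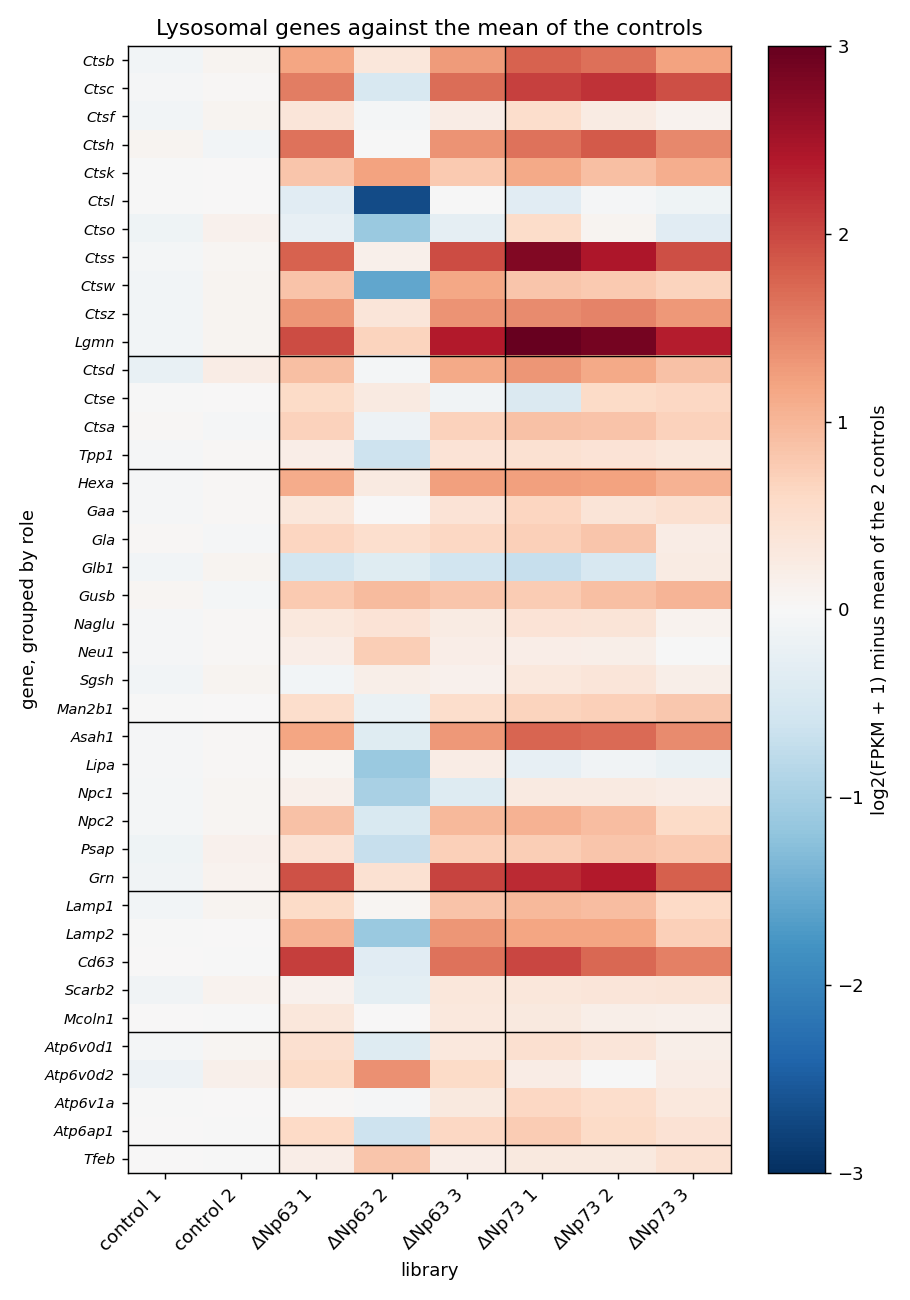
Each row is 1 of the 40 genes, grouped by role (black lines), and each column 1 library. The colour gives log2(FPKM + 1) minus the mean of the 2 controls, from blue (lower) to red (higher). Red fills most rows of 5 of the 6 libraries given Cre, while ΔNp63-labelled replicate 2 has blue cells at Ctsl, Ctsw and Lamp2 and red ones at Ctsk, Gusb and Atp6v0d2.

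The promoters were read for the motif through which TFEB acts. A RefSeq promoter (build GRCm38.p6, 250 bases before to 50 after the start) was available for 33 of the 40 genes. The motif CACGTG, which reads the same on both strands, was found in 14 of the 33 (42.4%), against 8.09% of 27025 genes with a promoter and 11.7% of the 8863 of them that were tested here. The longer form TCACGTGA, which contains it, was found in 6 of 33 (18.2%, against 1.12% of all promoters and 2.32% of those of tested genes). GTCACGTG, which also contains it and was read on both strands, was found in 10 (30.3%, against 2.55% and 4.89%). The palindrome of 10 letters that begins with GTCACGTG was found in 0 of 33, against 0.37% and 0.835%. A gene with several listed starts counted once if any held the motif. A match is a description of letters and not a shown binding site. The 250 bases upstream of the start follow for 4 genes with the motif and for Ctss and Grn, which have large fold changes and no match in this window, 5′ to 3′ on the gene's strand with each CACGTG in capitals. Lamp1 lies at chr8:13158911-13159160, plus strand, Ctsd at chr7:142387828-142388077, minus strand, Mcoln1 at chr8:3500269-3500518, plus strand, Lgmn at chr12:102439093-102439342, minus strand (the one of its 2 listed starts that holds the motif), Ctss at chr3:95526536-95526785, plus strand, and Grn at chr11:102430257-102430506, plus strand.
Lamp1: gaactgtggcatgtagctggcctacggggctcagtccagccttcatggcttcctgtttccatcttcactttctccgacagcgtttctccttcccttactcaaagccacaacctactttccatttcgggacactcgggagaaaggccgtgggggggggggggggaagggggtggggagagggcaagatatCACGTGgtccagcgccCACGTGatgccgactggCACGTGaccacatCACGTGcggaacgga
Ctsd: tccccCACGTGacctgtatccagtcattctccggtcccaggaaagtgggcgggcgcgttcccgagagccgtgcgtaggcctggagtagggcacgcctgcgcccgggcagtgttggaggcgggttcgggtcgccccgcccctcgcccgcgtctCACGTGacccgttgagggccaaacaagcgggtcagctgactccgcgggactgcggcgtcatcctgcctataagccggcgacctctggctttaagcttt
Mcoln1: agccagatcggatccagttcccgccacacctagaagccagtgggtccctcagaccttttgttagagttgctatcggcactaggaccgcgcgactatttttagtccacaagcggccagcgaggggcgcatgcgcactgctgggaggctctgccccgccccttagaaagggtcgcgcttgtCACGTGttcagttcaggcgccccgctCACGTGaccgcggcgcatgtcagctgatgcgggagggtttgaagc
Lgmn: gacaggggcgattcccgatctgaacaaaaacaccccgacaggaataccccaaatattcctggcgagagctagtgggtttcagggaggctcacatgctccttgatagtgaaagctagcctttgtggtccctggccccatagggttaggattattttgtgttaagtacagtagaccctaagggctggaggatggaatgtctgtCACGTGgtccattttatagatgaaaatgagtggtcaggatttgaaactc
Ctss: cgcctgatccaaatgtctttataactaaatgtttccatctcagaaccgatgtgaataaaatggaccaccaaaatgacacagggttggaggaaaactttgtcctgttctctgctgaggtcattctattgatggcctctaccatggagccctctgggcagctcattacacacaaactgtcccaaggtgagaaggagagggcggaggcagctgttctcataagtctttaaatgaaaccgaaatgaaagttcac
Grn: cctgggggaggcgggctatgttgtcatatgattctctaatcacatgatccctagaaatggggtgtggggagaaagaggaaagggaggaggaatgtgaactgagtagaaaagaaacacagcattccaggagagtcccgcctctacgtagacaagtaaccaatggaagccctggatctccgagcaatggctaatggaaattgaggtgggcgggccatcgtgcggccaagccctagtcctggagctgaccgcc
Lamp1, the gene of the most abundant lysosomal membrane glycoprotein, had 4 copies within 61 bases of its start, at positions -61, -45, -28 and -15. Ctsd had copies at -245 and -98, Mcoln1, the lysosomal calcium channel gene, at -71 and -45, and Lgmn 1 copy at -49. In the ΔNp73-labelled group the median log2FC was 0.41 for the 14 genes with it (from -0.31 to 2.74) and 0.85 for the 19 without it (from -0.18 to 2.38), a description with no test.

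Against control, the ΔNp73-labelled tumours had higher levels of most lysosomal genes. Of the 40 genes, 37 had a log2FC above 0, against 43.3% of all genes tested, and the median was 0.66 against -0.07 over all genes. In 33 of 40 (82.5%) all 3 ΔNp73-labelled libraries lay above both controls, against 27.7% of all genes, and in 2 (5%) below them, against 35.7%. By limma with Benjamini-Hochberg adjustment over all genes, 0 of 40 passed the threshold of 0.05 (0.0542% of all genes did), and 19 were higher at an unadjusted p under 0.05 (11.4% of all genes). The lowest adjusted p among the 40 was 0.0676, for Gusb. The spread in that model is shared with the ΔNp63-labelled group. Without ΔNp63-labelled replicate 2, 27 of 40 rose and 0 fell, against 16.8% and 16.1% of all genes, and with the control and ΔNp73-labelled libraries alone 25 rose and 0 fell, against 15.9% and 14.9%.

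The ΔNp63-labelled group was split by its own replicate 2. With all libraries 34 of 40 genes had a log2FC above 0 (47.7% of all genes), with a median of 0.39 against -0.02. In 13 genes (32.5%) all 3 libraries lay above both controls, against 12.6% of all genes, and in 2 (5%) below, against 17.7%. By limma 0 of 40 passed (0.0929% of all genes did), 10 were higher at an unadjusted p under 0.05 (5.96% of all genes), and the lowest adjusted p was 0.137, again for Gusb. Without replicate 2 the median was 0.59, and 22 of 40 rose and 0 fell, against 11.7% and 10.8% of all genes. Both groups shared 21 of the genes that rose without it, Atp6v0d2 rose in the ΔNp63-labelled group alone, and Atp6v1a, Gaa, Gla, Scarb2, Tfeb and Tpp1 in the ΔNp73-labelled group alone, with the difference between the groups passing for 0 of the 40. Replicate 2 was below both controls in 19 of the 40 genes, above both in 15, and the lowest of all 8 libraries in 18.

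**Figure D2:**
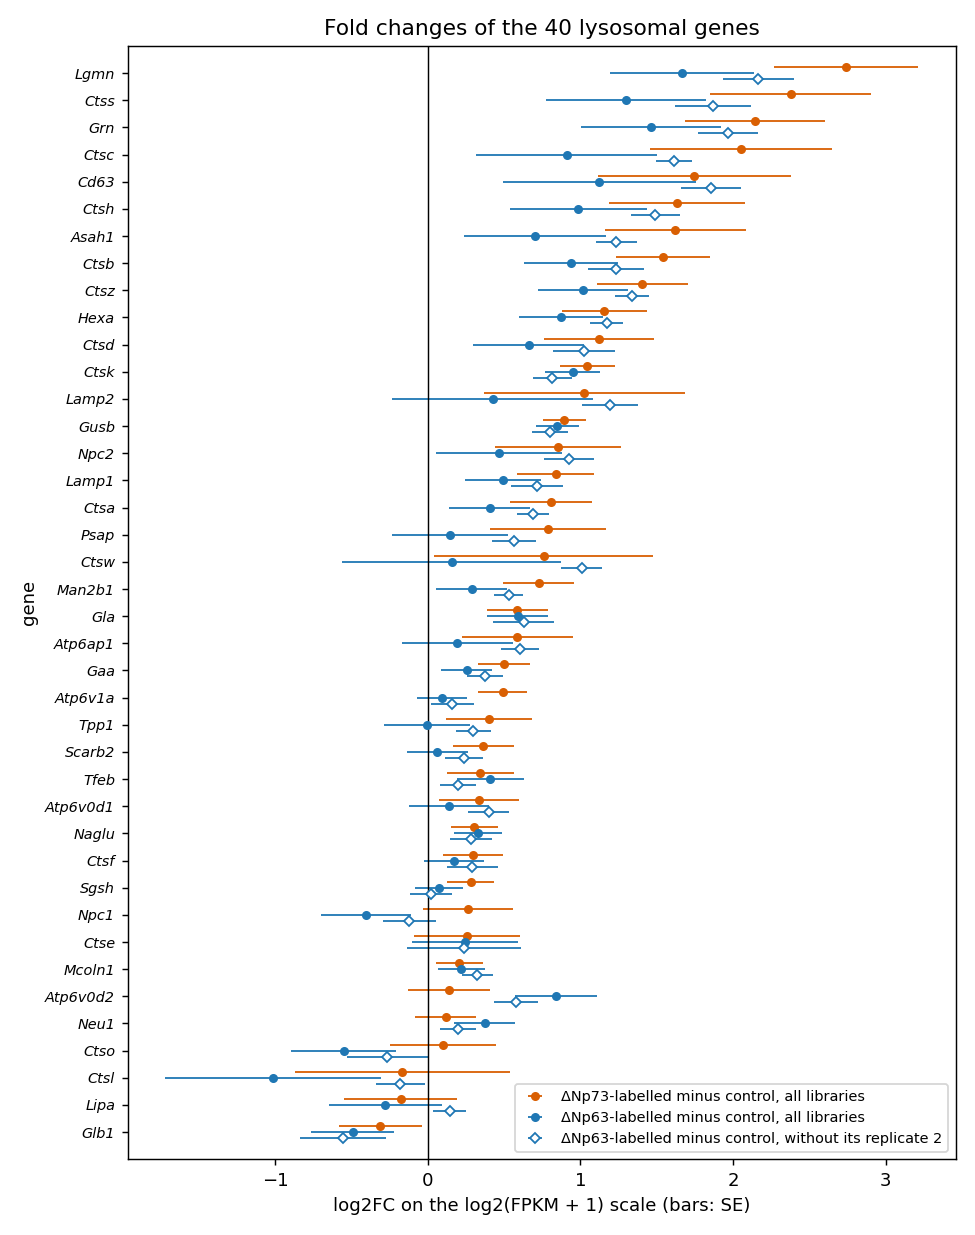
The horizontal axis is the log2FC against control on the log2(FPKM + 1) scale with its SE, for each of the 40 genes ordered by the ΔNp73-labelled group. Lgmn, Ctss and Grn lead in both groups, and the open diamonds, without ΔNp63-labelled replicate 2, lie to the right of the filled blue points for most of the genes at the top.

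The cysteine cathepsins and legumain held the largest differences. Lgmn, the gene of legumain, which cuts after asparagine and matures other cathepsins, was at 15.1 and 16.7 FPKM in control tumours, 64.1, 25.7 and 87.04 FPKM under the ΔNp63 label and 134, 122 and 85.8 FPKM under the ΔNp73 label. All 6 libraries given Cre lay above both controls, and ΔNp63-labelled replicate 2 was the lowest of them. The difference did not pass under either label (ΔNp73, log2FC 2.74, SE 0.47, adjusted p = 0.0743, and ΔNp63, log2FC 1.67, SE 0.47, adjusted p = 0.254). Without replicate 2 the gene rose in both (log2FC 2.74, SE 0.21, adjusted p = 0.000731, and log2FC 2.17, SE 0.23, adjusted p = 0.00216). Ctss, the cathepsin of antigen-presenting cells that finishes the invariant chain's removal, was at 35.1 and 38.02 FPKM in control tumours, 128, 40.96 and 145 FPKM under the ΔNp63 label and 255, 202 and 142 FPKM under the ΔNp73 label. Its ΔNp63-labelled replicate 2 lay just above the controls, and the other 5 libraries given Cre were at 128 FPKM or more. Neither label passed with all libraries (ΔNp73, log2FC 2.38, SE 0.53, adjusted p = 0.0941, and ΔNp63, log2FC 1.30, SE 0.53, adjusted p = 0.363), and Ctss rose under both without replicate 2 (log2FC 2.38, SE 0.23, adjusted p = 0.00113, and log2FC 1.87, SE 0.25, adjusted p = 0.00387).

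Ctsk lies directly next to Ctss on chromosome 3, with no coding gene between them. Its levels were low, at 1.26 and 1.28 FPKM in control tumours, 3.06, 4.29 and 2.94 FPKM under the ΔNp63 label and 4.04, 3.22 and 3.85 FPKM under the ΔNp73 label. Every library given Cre was above both controls, and here ΔNp63-labelled replicate 2 was the highest of all. The differences were close to each other (ΔNp63, log2FC 0.95, SE 0.18, adjusted p = 0.164, and ΔNp73, log2FC 1.04, SE 0.18, adjusted p = 0.0765). Ctsb, cathepsin B, a general endopeptidase and dipeptidase, was at 70.5 and 80.2 FPKM in control tumours, 173, 96.2 and 184 FPKM under the ΔNp63 label and 257, 237 and 176 FPKM under the ΔNp73 label, with no overlap between the controls and either group (ΔNp63, log2FC 0.94, SE 0.31, adjusted p = 0.299, and ΔNp73, log2FC 1.54, SE 0.31, adjusted p = 0.0815). Ctsk and Ctsb rose under both labels without replicate 2 (adjusted p from 0.00147 to 0.00656). Ctsc, dipeptidyl peptidase I, which activates the serine proteases of neutrophil and lymphocyte granules, was at 44.5 and 46.9 FPKM in control tumours, 135, 32.2 and 149 FPKM under the ΔNp63 label and 191, 211 and 178 FPKM under the ΔNp73 label. Replicate 2 of the ΔNp63-labelled group was below both controls, and the ΔNp73-labelled libraries were the highest (ΔNp63, log2FC 0.91, SE 0.59, adjusted p = 0.551, and ΔNp73, log2FC 2.05, SE 0.59, adjusted p = 0.128). Without that library Ctsc rose under both labels (ΔNp63, log2FC 1.61, SE 0.12, adjusted p = 0.00134, and ΔNp73, log2FC 2.05, SE 0.11, adjusted p = 0.000535), and the latter adjusted p was the smallest of the 40. Ctsz, a carboxypeptidase, was at 56.6 and 62.6 FPKM in control tumours, 151, 77.3 and 153 FPKM under the ΔNp63 label and 160.0, 170.1 and 149 FPKM under the ΔNp73 label, above both controls in every library given Cre. For Ctsh, an aminopeptidase, ΔNp63-labelled replicate 2 lay between the controls. The log2FC of Ctsz and Ctsh were 1.41 and 1.63 in the ΔNp73-labelled group and 1.02 and 0.99 in the ΔNp63-labelled group (adjusted p from 0.0861 to 0.407); both rose in both groups without replicate 2 (adjusted p from 0.00066 to 0.00216).

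Other cathepsins had a different layout. Ctsl was at 582 and 592 FPKM in control tumours, 462, 90.7 and 582 FPKM under the ΔNp63 label and 466, 569 and 539 FPKM under the ΔNp73 label. ΔNp63-labelled replicate 2 stood far below all other libraries, and the ΔNp73-labelled libraries lay slightly below both controls. No difference passed in the ΔNp63-labelled group with that library (log2FC -1.01, SE 0.71, adjusted p = 0.575) or without it (log2FC -0.18, SE 0.16, adjusted p = 0.45), nor in the ΔNp73-labelled group (log2FC -0.17, SE 0.71, adjusted p = 0.908). Ctsw, a cathepsin of cytotoxic and natural killer lymphocytes, was at 10.4 and 11.8 FPKM in control tumours, 20.9, 3.12 and 25.9 FPKM under the ΔNp63 label and 20.5, 19.6 and 18.2 FPKM under the ΔNp73 label. Replicate 2 was again the lowest, by a wide margin, and the 5 other libraries given Cre were all above the controls (ΔNp63, log2FC 0.16, SE 0.72, adjusted p = 0.95, and ΔNp73, log2FC 0.76, SE 0.72, adjusted p = 0.56). It rose under both labels without replicate 2 (ΔNp63, log2FC 1.01, SE 0.13, adjusted p = 0.00367, and ΔNp73, log2FC 0.76, SE 0.12, adjusted p = 0.00484). Ctso was at 6.48 and 8.07 FPKM in control tumours, 5.91, 2.78 and 5.79 FPKM under the ΔNp63 label and 11.1, 7.66 and 5.52 FPKM under the ΔNp73 label, with all ΔNp63-labelled libraries below both controls and the ΔNp73-labelled ones overlapping them (ΔNp63, log2FC -0.55, SE 0.35, adjusted p = 0.535, and -0.27 without replicate 2, adjusted p = 0.504). Ctsf, at 1.82 to 3.28 FPKM over all libraries, did not pass in any comparison, with or without replicate 2.

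**Figure D3:**
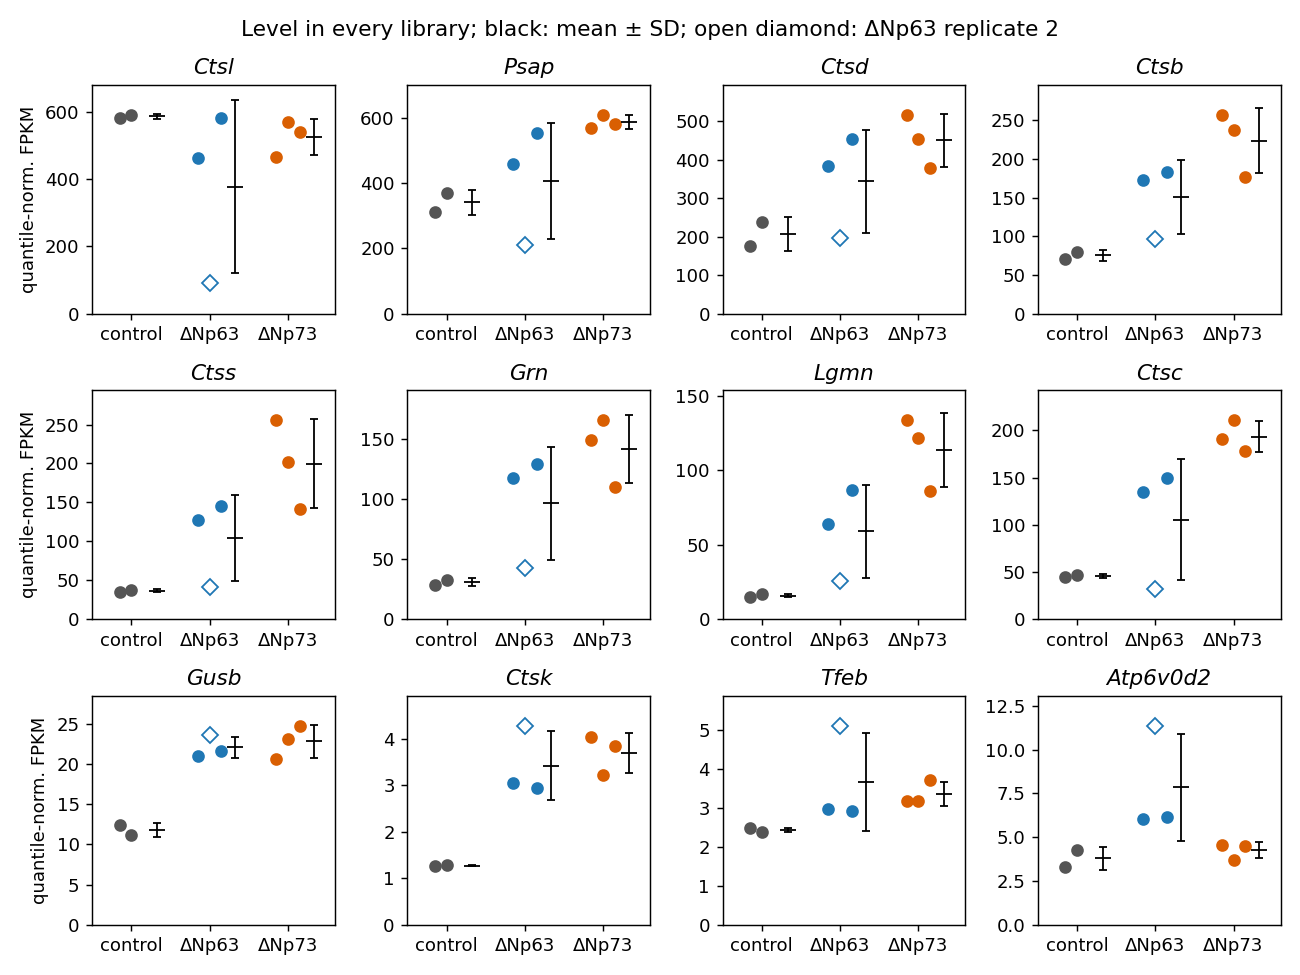
Each panel gives the quantile-normalised FPKM of 1 gene in every library (points) with the mean and SD of each group (black), on axes that start at 0. ΔNp63-labelled replicate 2 (open diamond) lies near the controls for Ctsd, Ctss, Grn and Ctsc, far below all other libraries for Ctsl, and above all others for Ctsk, Tfeb and Atp6v0d2.

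Among the aspartic and serine proteases, Ctsd was at 175 and 238 FPKM in control tumours, 382, 195 and 454 FPKM under the ΔNp63 label and 516, 454 and 379 FPKM under the ΔNp73 label. The ΔNp73-labelled libraries were all above the controls, while ΔNp63-labelled replicate 2 lay between them (ΔNp63, log2FC 0.66, SE 0.36, adjusted p = 0.477, and ΔNp73, log2FC 1.12, SE 0.36, adjusted p = 0.153). It rose under both labels without replicate 2 (log2FC 1.02 and 1.12, adjusted p = 0.0151 and 0.00562). Ctsa, a carboxypeptidase that also protects β-galactosidase and sialidase in a shared complex, had a log2FC of 0.81 in the ΔNp73-labelled group with all libraries (adjusted p = 0.159) and rose in both groups without replicate 2 (0.81 and 0.69, adjusted p = 0.00187 and 0.00585). Tpp1, a tripeptidyl peptidase, rose in the ΔNp73-labelled group without replicate 2 (0.40, adjusted p = 0.0244). Ctse, an endosomal aspartic protease, varied from 47.1 to 99.1 FPKM with overlapping groups and did not pass.

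Gusb, the gene of β-glucuronidase, had the smallest p of the 40 in both comparisons with control. It was at 12.4 and 11.2 FPKM in control tumours, 21.00, 23.6 and 21.6 FPKM under the ΔNp63 label and 20.6, 23.1 and 24.8 FPKM under the ΔNp73 label. The controls stood clear of all 6 other libraries, replicate 2 of the ΔNp63-labelled group included. The difference was of like size in both groups (ΔNp63, log2FC 0.85, SE 0.14, adjusted p = 0.137, and ΔNp73, log2FC 0.89, SE 0.14, adjusted p = 0.0676). Hexa, the alpha chain of β-hexosaminidase, which degrades gangliosides, was at 18.4 and 19.3 FPKM in control tumours, 41.8, 23.1 and 45.8 FPKM under the ΔNp63 label and 45.5, 44.8 and 39.96 FPKM under the ΔNp73 label, above the controls in every library given Cre (ΔNp63, log2FC 0.87, SE 0.28, adjusted p = 0.289, and ΔNp73, log2FC 1.16, SE 0.28, adjusted p = 0.1). Gusb and Hexa rose under both labels without replicate 2 (adjusted p from 0.000838 to 0.00513). Gla, which removes terminal galactose from glycolipids, was also higher in every such library (ΔNp63, log2FC 0.59, and ΔNp73, log2FC 0.59, adjusted p = 0.311 and 0.172). Man2b1, an acid mannosidase, rose in both groups without replicate 2 (0.53 in the ΔNp63-labelled and 0.73 in the ΔNp73-labelled group, adjusted p = 0.0107 and 0.00194), and Gaa, which degrades glycogen, rose in the ΔNp73-labelled group (0.50, adjusted p = 0.0134). Glb1, the β-galactosidase behind the senescence stain, had a log2FC below 0. It was at 10.99 and 12.5 FPKM in control tumours, 7.72, 8.89 and 7.57 FPKM under the ΔNp63 label and 6.82, 8.12 and 14.04 FPKM under the ΔNp73 label. All ΔNp63-labelled libraries lay below both controls, as did ΔNp73-labelled replicates 1 and 2, while replicate 3 was the highest of all (ΔNp63, log2FC -0.49, SE 0.27, adjusted p = 0.48, and ΔNp73, log2FC -0.31, SE 0.27, adjusted p = 0.528). Neu1, a sialidase, was at 3.90 and 4.06 FPKM in control tumours, 4.71, 7.24 and 4.71 FPKM under the ΔNp63 label and 4.73, 4.60 and 3.91 FPKM under the ΔNp73 label. ΔNp63-labelled replicate 2 stood above the other 7 libraries, and the ΔNp73-labelled ones overlapped the controls. Naglu, an enzyme of heparan sulphate breakdown, was at 3.41 and 3.61 FPKM in control tumours, 4.61, 5.03 and 4.37 FPKM under the ΔNp63 label and 5.02, 4.94 and 3.84 FPKM under the ΔNp73 label, with every library given Cre above both controls. Naglu (ΔNp63, log2FC 0.33, and ΔNp73, log2FC 0.31) and Sgsh, of the same pathway (0.07 and 0.28), did not pass with or without replicate 2.

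Of the genes for lipid handling, Grn, which encodes progranulin, a secreted and lysosomal precursor of granulins, was at 28.8 and 33.04 FPKM in control tumours, 118, 42.7 and 129 FPKM under the ΔNp63 label and 149.6, 166 and 110.2 FPKM under the ΔNp73 label. All libraries given Cre were above the controls, and replicate 2 of the ΔNp63-labelled group was the closest to them (ΔNp63, log2FC 1.46, SE 0.46, adjusted p = 0.285, and ΔNp73, log2FC 2.14, SE 0.46, adjusted p = 0.0883). Asah1, acid ceramidase, was at 14.7 and 15.3 FPKM in control tumours, 35.2, 11.4 and 38.3 FPKM under the ΔNp63 label and 52.5, 51.4 and 41.8 FPKM under the ΔNp73 label. Replicate 2 was below both controls, and the other 5 libraries given Cre were at 35.2 FPKM or more (ΔNp63, log2FC 0.70, SE 0.46, adjusted p = 0.556, and ΔNp73, log2FC 1.62, SE 0.46, adjusted p = 0.126). Psap was at 313 and 369 FPKM in control tumours, 458, 209.8 and 555 FPKM under the ΔNp63 label and 569, 609.5 and 582 FPKM under the ΔNp73 label, with the ΔNp73-labelled libraries all above the ΔNp63-labelled ones and the controls (ΔNp63, log2FC 0.15, SE 0.38, adjusted p = 0.907, and ΔNp73, log2FC 0.79, SE 0.38, adjusted p = 0.277). Grn, Asah1 and Psap rose under both labels without replicate 2, and the ΔNp63 log2FC were then 1.97, 1.24 and 0.57 (adjusted p = 0.00193, 0.00216 and 0.0325). The 5 minor entries of Psap had a log2FC above 0 in both comparisons as well, from 0.16 to 0.71 and from 0.31 to 1.05. Between the groups given Cre their log2FC ranged from -0.11 to 0.34. In the highest minor entry of Psap these groups overlapped, at 57.3, 31.8 and 64.4 FPKM (ΔNp63) and 71.5, 58.5 and 40.7 FPKM (ΔNp73). Npc2, the soluble cholesterol carrier, rose in both groups without replicate 2 (0.92 and 0.85, adjusted p = 0.00971 and 0.00663), but Npc1, the membrane protein it hands cholesterol to, did not pass (-0.12 and 0.26, adjusted p = 0.643 and 0.237). Npc1 was at 11.8 and 12.9 FPKM in control tumours, 13.8, 5.76 and 9.18 FPKM under the ΔNp63 label and 15.2, 15.1 and 14.7 FPKM under the ΔNp73 label, with ΔNp63-labelled libraries on both sides of the controls and the ΔNp73-labelled ones above them. Lipa, the acid lipase that frees that cholesterol, was at 64.5 and 67.3 FPKM in control tumours, 68.6, 29.8 and 77.6 FPKM under the ΔNp63 label and 55.6, 61.4 and 57.5 FPKM under the ΔNp73 label. Its ΔNp73-labelled libraries were all slightly below the controls (ΔNp63, log2FC -0.28, SE 0.37, adjusted p = 0.796, and ΔNp73, log2FC -0.18, SE 0.37, adjusted p = 0.803). The ΔNp63 log2FC turned to 0.14 without replicate 2 (adjusted p = 0.366).

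The membrane proteins were led by Cd63, a tetraspanin of late endosomes and secretory lysosomes, at 57.8 and 56.8 FPKM in control tumours, 244, 45.1 and 181 FPKM under the ΔNp63 label and 233, 193 and 164 FPKM under the ΔNp73 label. Replicate 2 of the ΔNp63-labelled group was below the controls, and the other 5 libraries were at least at 164 FPKM (ΔNp63, log2FC 1.12, SE 0.63, adjusted p = 0.487, and ΔNp73, log2FC 1.75, SE 0.63, adjusted p = 0.185). Without replicate 2 Cd63 rose under both labels (ΔNp63, log2FC 1.85, SE 0.20, adjusted p = 0.00216, and ΔNp73, log2FC 1.75, SE 0.18, adjusted p = 0.00128). Lamp1 was at 58.7 and 66.3 FPKM in control tumours, 93.1, 64.8 and 114 FPKM under the ΔNp63 label and 124, 120.2 and 94.7 FPKM under the ΔNp73 label, with ΔNp63-labelled replicate 2 between the controls (ΔNp63, log2FC 0.49, SE 0.25, adjusted p = 0.455, and ΔNp73, log2FC 0.84, SE 0.25, adjusted p = 0.137). The higher of the 2 entries of Lamp2, the other major membrane glycoprotein, needed for chaperone-mediated autophagy in one of its forms, was at 64.5 and 65.6 FPKM in control tumours, 136, 29.5 and 165 FPKM under the ΔNp63 label and 148, 149 and 107 FPKM under the ΔNp73 label. The second entry had 49.5 and 51.9 FPKM in control tumours, 67.5, 23.02 and 92.5 FPKM under the ΔNp63 label and 124, 121 and 119 FPKM under the ΔNp73 label. Lamp1 and the higher entry of Lamp2 rose under both labels without replicate 2 (Lamp2, ΔNp63, log2FC 0.42 with all libraries and 1.19 without, adjusted p = 0.83 and 0.00609). Among the ΔNp73-labelled libraries the second entry differed little in replicate 3, while the first was lowest there. Scarb2, the receptor that carries glucocerebrosidase to lysosomes, rose in the ΔNp73-labelled group without replicate 2 (0.36, adjusted p = 0.0449), and Mcoln1, at 6.31 to 8.32 FPKM, did not pass with or without replicate 2 (adjusted p from 0.06 to 0.577 against control) but did with limma's array weights, which give less weight to libraries that stand apart (adjusted p = 0.0208 under the ΔNp63 and 0.0495 under the ΔNp73 label).

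The proton pump genes differed less. Atp6v0d2, a pump subunit isoform known from osteoclasts and macrophages, was at 3.30 and 4.26 FPKM in control tumours, 6.06, 11.4 and 6.13 FPKM under the ΔNp63 label and 4.53, 3.71 and 4.52 FPKM under the ΔNp73 label. It was above the controls in all ΔNp63-labelled libraries, most in replicate 2, and overlapped them in the ΔNp73-labelled group (ΔNp63, log2FC 0.84, SE 0.27, adjusted p = 0.289, and ΔNp73, log2FC 0.14, SE 0.27, adjusted p = 0.79). Atp6v0d2 rose under the ΔNp63 label once that library was left out (log2FC 0.58, SE 0.14, adjusted p = 0.0304). Atp6v1a, the ATP-hydrolysing subunit, was at 19.97 and 20.05 FPKM in control tumours, 20.5, 19.4 and 24.7 FPKM under the ΔNp63 label and 31.4, 29.4 and 25.1 FPKM under the ΔNp73 label, with the ΔNp73-labelled libraries above all others. The widespread isoform Atp6v0d1 had a log2FC of 0.14 (ΔNp63) and 0.34 (ΔNp73), and Atp6v1a of 0.09 and 0.49; neither passed with all libraries, and Atp6v1a rose in the ΔNp73-labelled group without replicate 2 (adjusted p = 0.0265). Atp6ap1, an accessory protein of the pump, rose in both groups without replicate 2 (0.60 and 0.59, adjusted p = 0.0165 and 0.0093). Tfeb itself was at 2.48 and 2.39 FPKM in control tumours, 2.96, 5.11 and 2.91 FPKM under the ΔNp63 label and 3.19, 3.18 and 3.72 FPKM under the ΔNp73 label. Its level was above the controls in every library given Cre and highest in replicate 2, the library in which 18 of the 40 genes had their lowest value (ΔNp63, log2FC 0.41, SE 0.22, adjusted p = 0.471, and ΔNp73, log2FC 0.34, SE 0.22, adjusted p = 0.394). Without it the ΔNp63 log2FC was 0.20 (adjusted p = 0.262), and Tfeb rose under the ΔNp73 label (adjusted p = 0.0466).

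Between the groups given Cre the virus is the same, so this comparison holds it fixed. The ΔNp73-labelled group had the higher value for 34 of 40 genes (48.1% of all genes), with a median log2FC of 0.39 against -0.02, but 0 of 40 passed by limma (0.0542% of all genes did), 3 were higher and 1 lower at an unadjusted p under 0.05 (6.11% and 4.4% of all genes). In 6 genes the groups did not overlap with ΔNp73 higher (15%, against 10.3% of all genes): Asah1, Atp6v1a, Ctsc, Man2b1, Npc1 and, in its highest entry, Psap. In Atp6v0d2 alone it was lower without overlap (2.5%, against 8.58%). With all libraries and among the entries used, Ctsc had the largest difference (log2FC 1.14, SE 0.53, adjusted p = 0.475) and Atp6v0d2 the smallest p (log2FC -0.70, SE 0.24, adjusted p = 0.45). Atp6v1a was next (log2FC 0.40, SE 0.14, adjusted p = 0.465), then Lgmn (log2FC 1.08, SE 0.42, adjusted p = 0.468) and Npc1 (log2FC 0.67, SE 0.26, adjusted p = 0.471). Without ΔNp63-labelled replicate 2 the median was 0.11, 28 of 40 genes were above 0 (48.9% of all genes), and the largest differences were those of Lgmn at 0.57, Ctss at 0.51 and Ctsc at 0.44 (adjusted p = 0.277, 0.338 and 0.159). Npc1 was then at 0.38, Atp6v1a at 0.33 and Atp6v0d2 at -0.44. The sign of the difference turned in 10 of the 40 genes, which were Atp6ap1, Atp6v0d1, Cd63, Ctsw, Hexa, Lamp2, Lipa, Naglu, Npc2 and Tfeb. By limma 0 of 40 passed then as well (0.149% of all genes did), with 5 higher and 2 lower at an unadjusted p under 0.05 (8.16% and 7.43% of all genes). For Lamp2 the turned sign is that of its higher entry. The second entry of Lamp2 had a log2FC of 1.19 with all libraries, larger than that of Ctsc. Its ΔNp73-labelled libraries (124, 121 and 119 FPKM) all lay above the ΔNp63-labelled ones (67.5, 23.02 and 92.5 FPKM).

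The rest of the lysosomal system was counted over 6 lists. With all libraries 0 genes of these lists passed by limma in any comparison. Their counts without replicate 2 are to be read against the 11.7% of all genes that rose then in the ΔNp63-labelled and the 16.8% in the ΔNp73-labelled group. Among 33 other hydrolases and cofactors the median log2FC was 0.30 in the ΔNp63-labelled and 0.49 in the ΔNp73-labelled group, 6 and 12 had a higher level with an unadjusted p below 0.05 (5.96% and 11.4% of all genes), and 14 and 18 rose without replicate 2 (1 fell in the latter). Fuca1, an acid fucosidase, had the list's smallest p under the ΔNp63 label (log2FC 1.10, SE 0.17, adjusted p = 0.131). It was at 8.68 and 7.35 FPKM in control tumours, 19.2, 19.98 and 15.7 FPKM under the ΔNp63 label and 12.97, 10.9 and 10.4 FPKM under the ΔNp73 label, so the ΔNp63-labelled libraries, replicate 2 included, lay above all others. Dnase2a, the acid nuclease that digests engulfed DNA, had the smallest p in the ΔNp73-labelled group (log2FC 1.03, SE 0.20, adjusted p = 0.0811), while Ppt2, a thioesterase, was lower there (log2FC -0.45, SE 0.12, adjusted p = 0.12) and was the gene that fell without replicate 2. Of 16 other membrane proteins 4 rose in the ΔNp63-labelled group and 5 rose and 1 fell in the ΔNp73-labelled group without replicate 2; Cd68, a glycoprotein of macrophage lysosomes, had the smallest p in the latter with all libraries (log2FC 1.75, SE 0.34, adjusted p = 0.0787).

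Among 16 other pump subunits 4 and 5 rose without replicate 2. Tcirg1, the a3 subunit of osteoclasts and activated immune cells, had the smallest p, in the ΔNp63-labelled (log2FC 1.02, SE 0.19, adjusted p = 0.164) and the ΔNp73-labelled group (log2FC 1.10, SE 0.19, adjusted p = 0.0783). In the list for sorting of hydrolases, which holds the mannose 6-phosphate receptors, 0 and 1 of 12 rose without replicate 2, the latter being Sumf1, which activates sulphatases (log2FC 0.46, adjusted p = 0.0152). Of 12 genes for transcription and nutrient control 1 and 3 rose without replicate 2. In both these lists the counts were below the share of all genes, except for the 3 of 12, which was above 16.8%. Tfe3, a relative of Tfeb, had the smallest p in the ΔNp63-labelled group with all libraries (log2FC 0.64, SE 0.14, adjusted p = 0.193), and Tfec, another relative found in macrophages, in the ΔNp73-labelled group (log2FC 1.33, SE 0.24, adjusted p = 0.0787). Cathepsin inhibitors had the highest medians of the 6 lists, 0.85 and 1.22, with 7 of 11 tested genes risen in each group without replicate 2. Several were low in the controls, with Stfa2, Stfa3, Stfa2l1, BC100530 and BC117090 at 2.28 FPKM or less. Cstb, the highest there at 480 and 487 FPKM, overlapped the controls in both groups, while Cst3 was above them in every ΔNp73-labelled library. BC117090, a stefin-like gene, was listed at 0 in both controls and at 1.95, 0.596 and 1.70 FPKM under the ΔNp63 label and 1.28, 2.57 and 1.996 FPKM under the ΔNp73 label.

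Summed levels of cell type markers are given beside these differences. Of 19 macrophage and monocyte markers 18 were analysed here and 17 tested, and all 17 had a log2FC above 0 in both groups against control (median 1.06 and 1.57); without ΔNp63-labelled replicate 2, 15 and 17 rose (11.7% and 16.8% of all genes). Their summed level was 424 and 485 FPKM in the controls, 463 to 1234 in the ΔNp63-labelled and 1121 to 1478 in the ΔNp73-labelled libraries, with the low value in replicate 2, and no marker was at 0 in any library. Summed fibroblast markers ranged from 139.98 to 143.9 FPKM in the controls, from 158 to 378 in the ΔNp63-labelled and from 403 to 508 in the ΔNp73-labelled group. Without replicate 2, 7 and 12 of the 12 fibroblast markers rose and 0 fell (11.7% and 16.8% of all genes rose). With all libraries 1 passed by limma in the ΔNp73-labelled group (0.0542% of all genes did). Neutrophil markers ranged from 183 to 691, from 62.4 to 862 and from 1066 to 1645 FPKM, with Elane at 0 in replicate 2. S100a8 alone made up most of this sum in every library. The other 11 neutrophil markers summed to 85.7 and 233 FPKM in the controls, 23.9 to 391 in the ΔNp63-labelled and 394 to 544 in the ΔNp73-labelled libraries. In ΔNp73-labelled replicate 1, Ngp and Camp were below both controls and Ltf and Elane between them, while the rest of the list was above both. Thymic epithelial markers ranged from 222 to 224, from 70.1 to 341 and from 289 to 474 FPKM. The latter sum was lowest in replicate 2, the library with the lowest Ctsl. Krt5, Krt8 and Krt14 were its largest parts in every library. Psmb11 (14.2 and 11.9 FPKM in the controls, 6.18, 9.64 and 6.66 under the ΔNp73 label) and Aire were below both controls in every ΔNp73-labelled library. The other 7 of 9 had a log2FC above 0 in that group. Without replicate 2, 1 and 3 of the 9 rose and 0 fell (11.7% and 16.8% of all genes rose). Thymocyte and T cell markers summed to 6783 and 7536 FPKM in the controls, to 3146 to 5453 in the ΔNp63-labelled and to 3098 to 4915 in the ΔNp73-labelled libraries. Without replicate 2, 3 and 10 of these 18 markers fell and 0 rose, while 10.8% and 16.1% of all genes fell. Their part in the differences of the lysosomal genes was not tested, and in bulk tissue fewer cells of a type cannot be told apart from less RNA per cell.

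In the smaller marker lists the summed level of every ΔNp73-labelled library was above both controls. ΔNp63-labelled replicates 1 and 3 were above them too, and replicate 2 only for the cytotoxic markers. Without replicate 2, 2 of 7 dendritic, 2 of 7 B cell, 3 of 8 cytotoxic and 1 of 8 endothelial markers rose in the ΔNp63-labelled group (11.7% of all genes). In the ΔNp73-labelled group 5, 2, 5 and 5 rose (16.8% of all genes). A dendritic cell marker fell in each group. Dendritic cell markers summed to 33.4 and 36.9 FPKM in the controls, 16.4 to 56.3 in the ΔNp63-labelled and 45.9 to 56.1 in the ΔNp73-labelled libraries. B cell markers summed to 37.7 and 39.3, 12.0 to 78.5 and 53.5 to 58.0 FPKM. Cytotoxic lymphocyte markers, the cells of Ctsw, summed to 166 and 189 FPKM, 409.9 to 1039 and 339 to 624. The 1039 was ΔNp63-labelled replicate 2, where Gzma, a granule protease gene, made up 981 FPKM, against 24.4 to 53.4 in the other libraries. The other 7 of these markers summed to 57.8 FPKM there, below the controls at 128 and 139, and to 314 to 586 FPKM in the other libraries given Cre, and Ctsw was likewise lowest in replicate 2. Ccl5 was the largest part of that remainder, at 41.5 FPKM in replicate 2 and 98.4 and 104 FPKM in the controls. The 7 markers did not move together in replicate 2. Ccl5, Nkg7, Klrd1 and Prf1 were below both controls there, and Gzmb (3.66 FPKM, controls 1.35 and 1.37), Ncr1 and Klrk1 above both. Endothelial markers summed to 25.2 and 33.7, 32.1 to 41.0 and 37.2 to 65.1. Of 5 osteoclast markers only Acp5 was analysed here, at 20.3 and 20.4 FPKM in control tumours, 57.7, 17.7 and 48.7 FPKM under the ΔNp63 label and 34.5, 47.1 and 39.8 FPKM under the ΔNp73 label. Replicate 2 was the lowest library for Acp5, while it was the highest for Ctsk and Atp6v0d2, the members best known from osteoclasts.

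**Figure D4:**
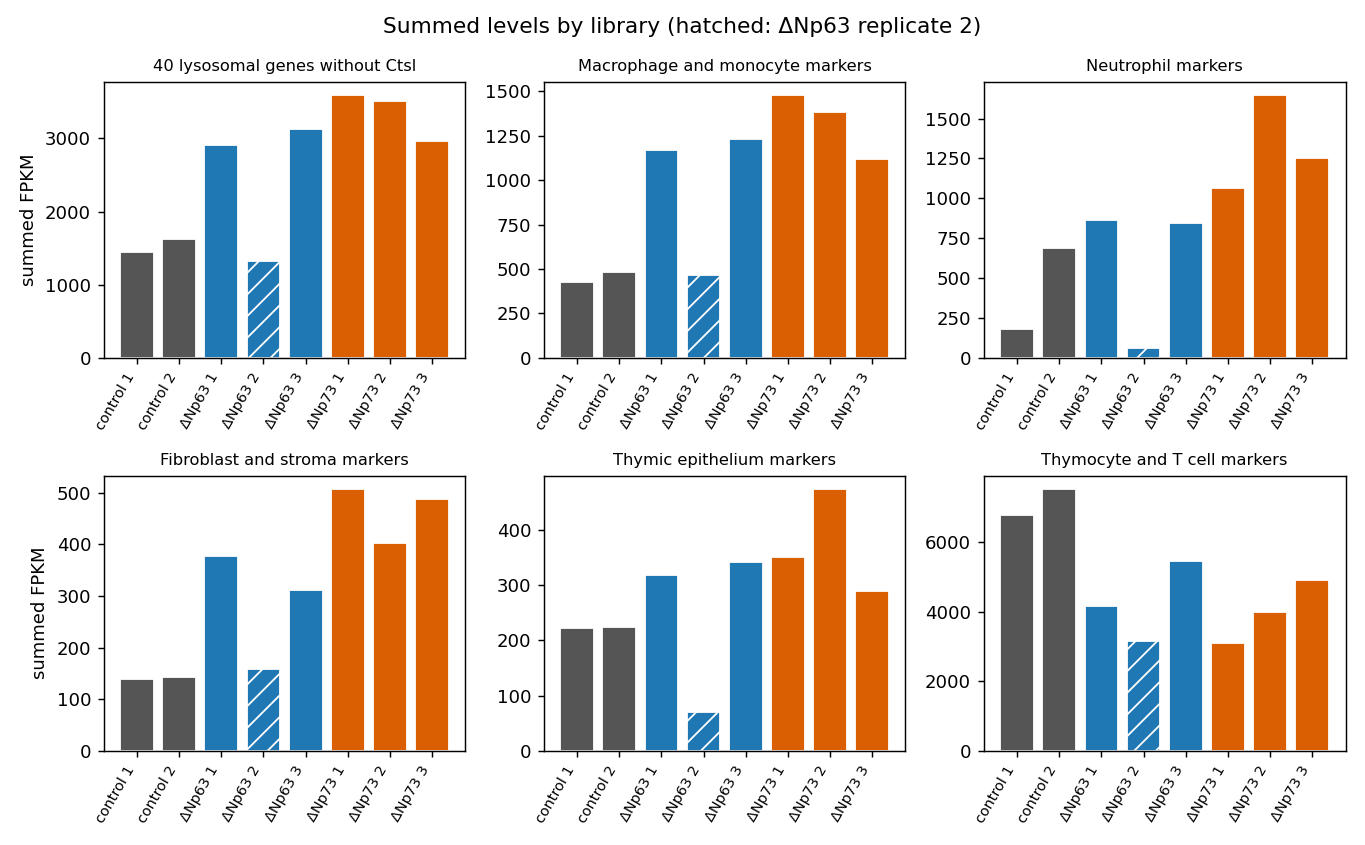
Bars give the summed FPKM in each library of the 40 lysosomal genes without Ctsl and of 5 cell type marker lists, on axes that start at 0. ΔNp63-labelled replicate 2 (hatched) has the lowest bar for the lysosomal genes, neutrophil and thymic epithelial markers, and lies within the control range for macrophage markers.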

How the data were processed

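The authors deposited 1 table of FPKM per RefSeq transcript for 8 libraries, quantile-normalised between libraries as the name they gave the table says. The submitters' processing notes name TopHat2 2.0, Cufflinks 2.0 and the build mm9, without their roles. Libraries were grouped by genotype label and numbered in accession order. The entry with the highest mean was kept per symbol, genes reaching 1 FPKM in 2 or more libraries entered the test, and log2(FPKM + 1) was fitted in R 4.3.3 with limma 3.58.1 (empirical Bayes with a trend, two-sided, all 8 libraries in 1 model, 5 residual degrees of freedom). Alternatives changed the pseudocount, the filter, the choice of entry, the weights, the samples in the fit, the trend and the scaling, or left out 1 library. Adjustment was by Benjamini-Hochberg over all genes tested, at 0.05. The fit was tested on simulated data, where 85% and 87% of genes changed by a log2FC of size 2 and 3 passed, and 14 unchanged genes did. Those values were drawn independently for each gene and library. The simulation thus held no library that stands apart as ΔNp63-labelled replicate 2 does, and does not show how the fit behaves with one. Depth is unknown, so no counting interval is given.

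Members, lists and roles were chosen with earlier results of these data known. Values in every library are given for the 4 members with the smallest p per direction in a comparison and for 12 members chosen by role (Ctsb, Ctsd, Ctsk, Ctsl, Ctss, Ctsw, Lgmn, Lamp1, Psap, Grn, Tfeb, Atp6v0d2); others were added after their values were seen. For the pathway lists, genes with the smallest p per direction are named, and marker lists are given as counts and sums. Other genes of these lists were named after their values were seen. Promoters came from RefSeq, build GRCm38.p6.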

Additional observations from a re-analysis of the deposited data

How the results depend on the processing

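No paired analysis was possible because the labels link no library of a group to a library of another. The count of lysosomal genes past the threshold was 0 in all 3 comparisons, and also with a pseudocount of 0.1 or 0.5, without the filter, with a minimum of 5 FPKM, with summed entries, without a trend and with cyclic loess scaling (added after seeing the data). With array weights it was 26 in the ΔNp63-labelled and 31 in the ΔNp73-labelled group against control. With only the libraries of the groups compared it was 0 and 25. Leaving out 1 library at a time it ranged from 0 to 22 and from 0 to 27, with the upper value without ΔNp63-labelled replicate 2 and 0 otherwise, and it was 0 between the deletion groups under every setting (unadjusted p under 0.05 in 0 to 12 genes).

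Over all genes the ΔNp63-labelled count of 12 became 4480 with array weights, 5 with its own libraries and the controls alone, and 3 to 2882 leaving out 1 library. The ΔNp73-labelled count of 7 became 18 and 11 with a pseudocount of 0.1 and 0.5, 6569 with array weights, 3890 with only 2 groups, 15 with loess scaling, and 0 to 4212 leaving out 1 library. The count of 7 between the deletion groups became 344 with array weights and 6 to 19 leaving out 1 library. The median log2FC of the members kept its sign: against control it was 0.26 to 0.59 and 0.65 to 0.73 leaving out 1 library, and 0.75 with a pseudocount of 0.1 and 0.77 with a minimum of 5 FPKM in the ΔNp73-labelled group. Between the deletion groups it was 0.15 with array weights and 0.11 to 0.55 leaving out 1 library.

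Over all 40 members, the sign turned in 57 values of 23 genes across the alternatives and comparisons, and 0 of these values passed. Without ΔNp63-labelled replicate 2 it turned in 10 genes between the deletion groups and in Lipa and Tpp1 in the ΔNp63-labelled group against control. The values of the members chosen by the rule for named genes follow. In the ΔNp63-labelled group against control Ctsw was -0.20 and -0.34 without replicates 1 and 3 (-0.34 to 1.01 leaving out 1 library), and Psap -0.13 without replicate 3 (-0.13 to 0.57). In the ΔNp73-labelled group Atp6v0d2 was -0.007 without control replicate 1 (-0.007 to 0.28). Between the deletion groups Ctsw was -0.14 with array weights and -0.25 without ΔNp63-labelled replicate 2 (-0.25 to 1.10), Naglu 0.061 with array weights, 0.021 without that library, 0.078 without ΔNp73-labelled replicate 3 (-0.079 to 0.078) and 0.0027 with loess scaling, and Tfeb 0.095 with array weights and 0.15 without ΔNp63-labelled replicate 2 (-0.18 to 0.15). The cause was not tested. With 2 controls and no counts, depth cannot be weighed.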
